A study of Sus scrofa with 6 samples.

Results

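Oocyte growth factor and BMP/activin signalling is described here in mature pig oocytes through 6 genes: GDF9, BMP15, ACVR1, ID3, INHBA and FST. They were chosen by name, and every probe set to which the array's annotation gives one of these symbols alone was taken. This gave 8 probe sets for the 6 genes, among 10069 probe sets with a single symbol for 6765 genes. GDF9, BMP15, ID3 and INHBA had 1 probe set each, and ACVR1 and FST had 2 each, called the brighter and the dimmer one below.

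RNA came from egg cells of domestic pigs, with 3 Affymetrix porcine arrays for sows, labelled adult and developmentally competent, and 3 for gilts, labelled prepubertal and developmentally incompetent. Both groups were otherwise treated alike: cumulus-oocyte complexes from follicles of 2 to 6 mm were matured in vitro for 42 to 44 h in modified Tissue Culture Medium 199, the cumulus cells were removed with hyaluronidase and vortexing, and oocytes with an extruded polar body, thus at metaphase II, were kept. No strain, genotype or agent distinguishes the groups in the labels. The arrays are labelled biological replicates, but the number of oocytes and animals pooled on each is not given, so the p-values cover only the spread among these arrays, which may be partly technical.

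GDF9 and BMP15 are growth factors of the TGF-beta superfamily that the oocyte secretes to the surrounding granulosa and cumulus cells, where they drive proliferation and cumulus expansion. Ligands of this family bind pairs of type I and type II receptors on the target cell, whose kinases activate SMAD proteins that enter the nucleus. Activin A, a dimer of the subunit that INHBA encodes, uses the same kind of receptors, and follistatin, the product of FST, binds activin and keeps it from its receptor. ACVR1, also called ALK2, is a type I receptor for BMPs, and ID3, an inhibitor of helix-loop-helix transcription factors, is a classical target gene of BMP signalling.

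Values are MAS5 signals, the summary that Affymetrix software computes for a set of probes, on a linear scale in arbitrary units. The level of one probe set cannot be set against that of another, since probes differ in how strongly they bind, so levels are compared between arrays only. The arrays as deposited were not at one level. Their 2% trimmed mean signal lay between 123 and 161 in adult and between 106 and 132 in prepubertal oocytes, a log2 difference of −0.27 (exact permutation test, 2-sided, p = 0.20). The spiked hybridization controls went the other way, by 0.17 (exact permutation p = 0.20). Each comparison is therefore given as deposited and after quantile normalization, which forces all arrays onto 1 distribution. Over the 12000 tested probe sets the median log2 difference, prepubertal minus adult, was −0.20 on the deposited values and −0.01 once quantile normalized, and a member's difference is to be read against these.

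The labelled cell type was checked against its markers. Of 15 oocyte markers 7 were measured, with ZP4 and ZP2, genes of the egg coat, the brightest at mean signals of 2636 and 1568 in adult and 2544 and 1657 in prepubertal oocytes. Adult and prepubertal means of the others were 543 and 429 for ZP3, 216 and 136 for POU5F1 and 77.4 and 59.9 for NPM2. KIT, at 23.3 and 4.96, and DDX4, at 6.46 and 5.84, were too dim to be tested. Summed over the measured oocyte markers the signal was 4636 to 5452 per adult array and 4407 to 5226 per prepubertal array. Such sums can be compared between arrays but not between lists. The 17 measured cumulus and granulosa markers of 19 summed to 271 to 336 and 231 to 331, and the 2 brightest of them, VCAN and NR5A1, had adult means of 49.4 and 59.7 and prepubertal means of 50.7 and 40.2. The sums for 6 of 8 theca and stroma markers (COL1A2 and COL3A1 the brightest) were 83.9 to 146 and 72.1 to 111, and for 6 of 6 endothelial markers (PECAM1 and TEK the brightest) 144 to 157 and 93.9 to 154. Those for 6 of 8 blood and immune markers were 297 to 507 and 170.1 to 408, most of it from the haemoglobin gene HBB, with PTPRC next. None of the measured markers was listed at exactly 0 on any array.

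Of the 8 member probe sets 7 were bright enough to be tested, having a mean log2 value at or above the median of all probe sets, and the dimmer FST probe set was not. None of the 7 passed the limma test at an adjusted p of 0.05, where 0.442% of all tested probe sets were called lower and 0.0333% higher in prepubertal oocytes. The count was also 0 after quantile normalization, where 0.0917% were called lower and 0.025% higher. At an unadjusted limma p under 0.05 there were 3 members, GDF9, ACVR1 (brighter) and ID3, all with lower values in prepubertal oocytes, against 13.6% of all tested probe sets lower and 1.14% higher. After quantile normalization there were 2, ACVR1 (brighter) with lower and BMP15 with higher values, against 5.81% lower and 5.05% higher. As deposited 5 of the 7 had lower mean values in prepubertal oocytes. All prepubertal arrays lay below all adult arrays for 3 members (ACVR1 brighter, ID3 and FST brighter), which held for 17.1% of all tested probe sets (1.81% were separated upward). After quantile normalization 2 members were separated downward (ACVR1 brighter and FST brighter) and 1 upward (BMP15), against 8.77% and 7.54% of tested probe sets.

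**Figure D1:**
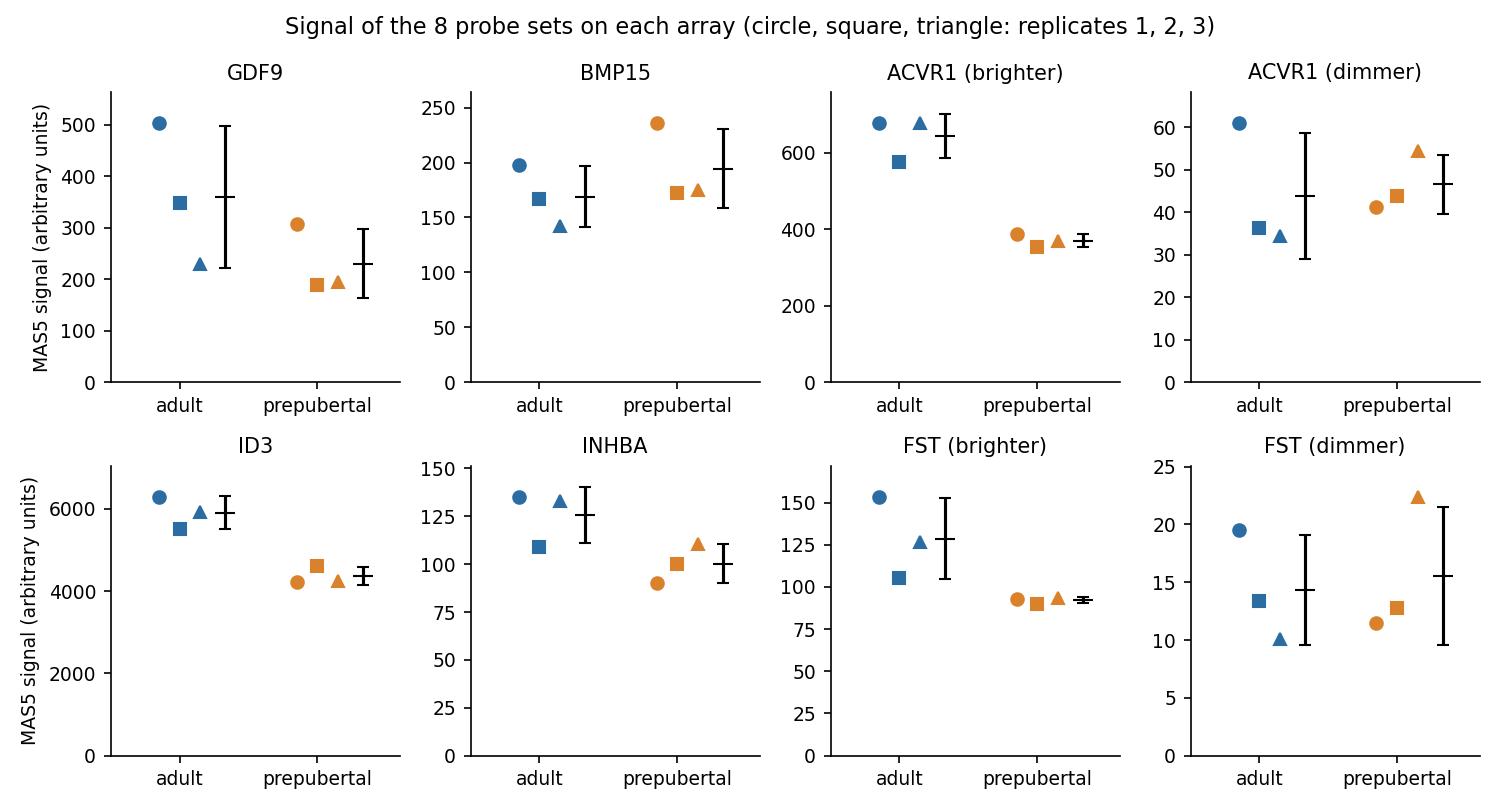
MAS5 signal (linear, arbitrary units, each axis from 0) of the 8 probe sets on the 3 adult arrays (blue) and the 3 prepubertal arrays (orange), with the group mean ± SD in black. The groups are apart for the brighter ACVR1 probe set, ID3 and the brighter FST probe set, and overlap for the other 5.

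The growth factors that the oocyte itself secretes are taken first. GDF9 had signals of 503, 347 and 229 on adult replicates 1, 2 and 3 and 307, 189.7 and 194 on prepubertal replicates 1, 2 and 3. The highest adult array was 2.65 times the lowest prepubertal one, but the groups overlapped, since the lowest adult value lay below the highest prepubertal one. Group means were 360.1 ± 137 and 231 ± 66.6 (SD, n = 3), and prepubertal values were 1.49-fold lower on the log2(signal + 16) scale, a difference of −0.58 ± 0.27 (SE; 95% interval −1.14 to −0.02; limma adjusted p = 0.327). After quantile normalization the difference was −0.31 (95% interval −0.80 to 0.19; limma adjusted p = 0.649). With any 1 array left out, on either scale, it lay between −0.85 and −0.13. GDF9 was the most variable of the 7 tested members within groups: its within-group SD of 0.46 on the log2 scale exceeded that of 87.0% of the tested probe sets, whose median was 0.28, and after quantile normalization that of 79.8%.

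BMP15, the X-linked relative of GDF9 with which it can form a dimer, behaved otherwise. Its signals were 198, 167 and 143 on adult replicates 1, 2 and 3 and 236, 172.5 and 175 on prepubertal replicates 1, 2 and 3. The groups overlapped, with means of 169 ± 27.7 and 195 ± 35.9 (SD, n = 3) and a log2 difference of 0.18 ± 0.23 (95% interval −0.30 to 0.67; limma adjusted p = 0.740). After quantile normalization the adult values were 159, 178 and 131 and the prepubertal ones 229, 211 and 199, so that all prepubertal arrays were above all adult ones. The difference was then 0.42 (95% interval 0.06 to 0.78), 1.34-fold higher, with an unadjusted limma p of 0.0274 that did not survive adjustment (0.389). BMP15 stood between the 81.5th and 85.9th percentile of all probe sets on the 6 arrays and GDF9 between the 85.2nd and 89.8th.

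The ratio of GDF9 to BMP15 on one array does not depend on that array's scaling and was lower on every prepubertal array than on any adult array. It was 2.55, 2.08 and 1.61 on adult replicates 1, 2 and 3 and 1.30, 1.10 and 1.11 on prepubertal replicates 1, 2 and 3. On the log2 scale the means were 1.03 ± 0.33 and 0.22 ± 0.14 (SD, n = 3), a difference of −0.81, which is a 1.75-fold lower ratio in prepubertal oocytes. The exact permutation test, 2-sided, gave p = 0.10, the smallest that 3 arrays against 3 can give, so this design cannot pass 0.05. The ratio says how the 2 signals shifted against each other and not how many molecules of each were present. The separation was common among partners of BMP15: 35.7% of the other tested probe sets had a signal ratio to BMP15 that was lower on all prepubertal arrays. With GDF9 as the numerator, 6.72% of partners gave a ratio separated in this way. The difference was −0.78 after quantile normalization, with the groups still apart, and −0.65 to −0.98 with any 1 array left out. Groups that are apart on all arrays stay apart when an array is left out, so their separation there adds nothing.

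**Figure D2:**
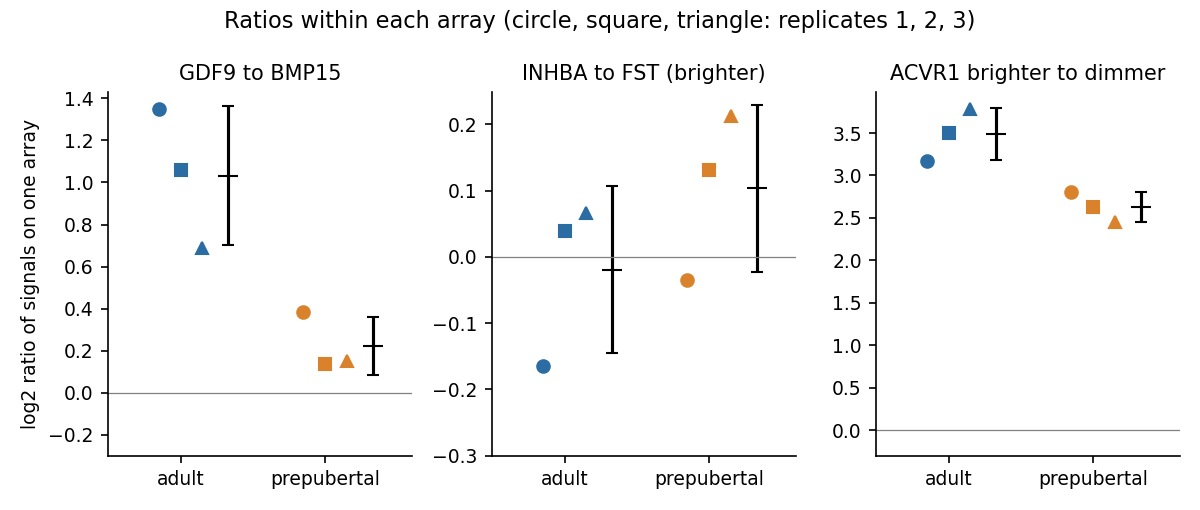
Log2 ratio of 2 signals on the same array for GDF9 to BMP15 (no constant added), INHBA to the brighter FST probe set, and the brighter to the dimmer probe set of ACVR1 (16 added to each signal), with adult arrays in blue, prepubertal arrays in orange and the group mean ± SD in black. The GDF9 to BMP15 ratio has a mean of 1.03 in adult and 0.22 in prepubertal oocytes with no overlap, whereas the INHBA to FST ratio overlaps.

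Replicate 1 had the highest GDF9 signal and the highest GDF9 to BMP15 ratio in both groups, and other measures were also at an extreme there. The array level was among them, with 2% trimmed means of 161, 123 and 142 on the adult arrays and 132, 106 and 115 on the prepubertal ones. After quantile normalization GDF9 was still highest on replicate 1, at 407, 366 and 208 in adult and 303, 236 and 221 in prepubertal oocytes. HBB, of red blood cells, had deposited signals of 428, 221 and 238 on the adult arrays and 367, 127 and 148 on the prepubertal ones. The 5′ control probe set of the elongation factor EF1A, which reads the end of the transcript lost first in shortened RNA or amplification, had signals of 249.7, 137 and 96.4 on the adult arrays and 283, 135 and 135 on the prepubertal ones. The log2 ratio of its 3′ to its 5′ probe set was 4.82, 5.25 and 5.82 in adult and 4.77, 5.38 and 5.42 in prepubertal replicates 1, 2 and 3. Its group means were 5.30 ± 0.50 and 5.19 ± 0.36 (SD, n = 3; exact permutation p = 0.90). Those of actin were 7.98 and 7.79 (exact permutation p = 0.70) and those of GAPDH 3.30 and 2.80 (exact permutation p = 0.20), with 5′ signals of both near background. On replicate 1 of the adult and prepubertal groups the EF1A log2 ratio was 4.82 and 4.77 and the GDF9 to BMP15 log2 ratio 1.35 and 0.38. That is 1 pair of arrays and 1 control transcript. The part of blood RNA and of transcript integrity in the GDF9 signal and in the GDF9 to BMP15 ratio was not tested.

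**Figure D3:**
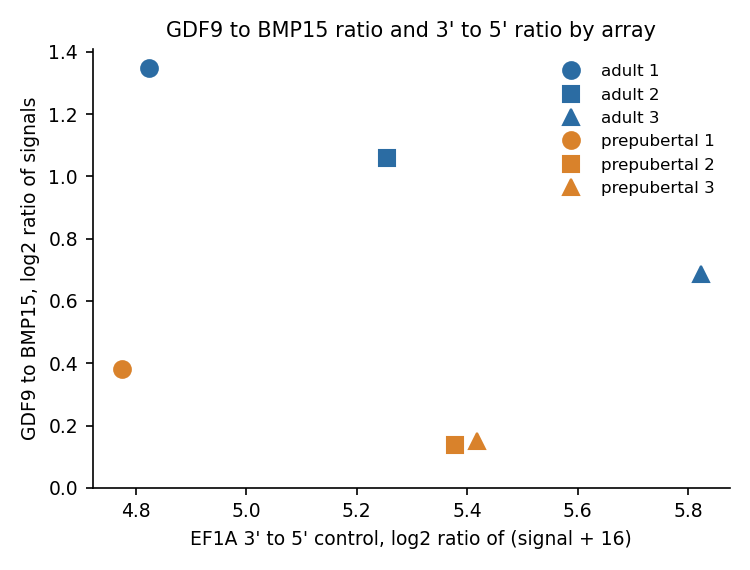
Log2 ratio of the GDF9 and BMP15 signals (vertical axis) against the log2 ratio of the 3′ and 5′ EF1A control probe sets, with 16 added to each (horizontal axis), 1 point per array. Within each group replicate 1 lies at the upper left, and the prepubertal points, at 0.14 to 0.38, lie below the adult points, at 0.69 to 1.35.

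INHBA, whose product forms activin A as a dimer, had signals of 135, 109 and 133 on adult replicates 1, 2 and 3 and 90.3, 100.03 and 111 on prepubertal replicates 1, 2 and 3. The groups overlapped by a single pair of arrays, adult replicate 2 lying just below prepubertal replicate 3. Means were 126 ± 14.6 and 100.3 ± 10.2 (SD, n = 3), with a log2 difference of −0.28 ± 0.22 (95% interval −0.75 to 0.18; limma adjusted p = 0.572). The median over all tested probe sets was −0.20, and after quantile normalization −0.07 was left for INHBA (95% interval −0.46 to 0.32; limma adjusted p = 0.922).

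BMP and activin receptors were represented by ACVR1, whose brighter probe set had the largest difference of all members. Signals were 677, 577 and 678 on adult replicates 1, 2 and 3 and 387, 354 and 371 on prepubertal replicates 1, 2 and 3. The groups were far apart, with means of 644 ± 58.1 and 371 ± 16.1 (SD, n = 3) and a within-group SD on the log2 scale below which 2.475% of the tested probe sets lay as deposited and 9.95% after quantile normalization. Prepubertal values were 1.70-fold lower, a log2 difference of −0.77 ± 0.21 (95% interval −1.21 to −0.33), with an unadjusted limma p of 0.00144 and an adjusted one of 0.106. After quantile normalization the values were 538, 619 and 613 against 379, 444 and 422, still without overlap. The difference was then −0.49 (95% interval −0.79 to −0.20), 1.41-fold lower, with a limma adjusted p of 0.192. Without prepubertal replicate 1 the adjusted limma p was 0.0341 as deposited, in a fit that called 658 probe sets in place of 57. Leaving out each of the other 5 arrays gave limma adjusted p-values of 0.144 to 0.371, and leaving out each of the 6 after quantile normalization gave 0.168 to 0.545.

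The dimmer ACVR1 probe set did not share this difference. Its signals were 61.0, 36.3 and 34.3 on adult replicates 1, 2 and 3 and 41.4, 43.9 and 54.5 on prepubertal replicates 1, 2 and 3. The groups overlapped throughout, with a log2 difference of 0.09 ± 0.25 (95% interval −0.43 to 0.60; limma adjusted p = 0.898) and of 0.23 after quantile normalization. The log2 ratio of the brighter to the dimmer probe set, with 16 added to each signal, was 3.17, 3.50 and 3.78 on the adult arrays and 2.81, 2.63 and 2.45 on the prepubertal ones. All prepubertal ratios were below all adult ones, by 0.85 on average (exact permutation p = 0.10, the smallest possible). The brighter probe set was already apart by itself, as were 17.1% of all tested probe sets in that direction as deposited. The separation of the ratio therefore adds little to it. How often the ratios of other pairs of probe sets are separated was not counted. Both probe sets carry the symbol ACVR1 in the annotation but are matched there to different expressed sequence tags, and which part or form of the transcript each reads is not stated in the annotation. The lower value in prepubertal oocytes is thus a result for 1 of the 2 probe sets, and ACVR1 as a gene has no single direction here.

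ID3 was among the brightest probe sets of the array, between the 99.1st and 99.5th percentile. Its signals were 6298, 5499 and 5927 on adult replicates 1, 2 and 3 and 4232, 4609 and 4238 on prepubertal replicates 1, 2 and 3. The groups did not overlap, with means of 5908 ± 399.6 and 4359.7 ± 216 (SD, n = 3), and 1.25% of the tested probe sets had a smaller within-group SD as deposited, 17.3% after quantile normalization. The log2 difference was −0.44 ± 0.14 (95% interval −0.73 to −0.15), 1.35-fold lower, with an unadjusted limma p of 0.00504 and an adjusted one of 0.180. After quantile normalization the values were 5227, 5738 and 5528 against 4190.0, 5422 and 4786, so that prepubertal replicate 2 lay within the adult range. The difference was then −0.20 (95% interval −0.42 to 0.02; limma adjusted p = 0.495), so its size changed with the scaling of the arrays.

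Of the inhibitors, FST was read by a brighter probe set with signals of 154, 106 and 126 on adult replicates 1, 2 and 3 and 92.9, 89.9 and 93.3 on prepubertal replicates 1, 2 and 3. The prepubertal arrays lay within 1.81 (SD) of their mean of 92.0, all below the adult mean of 128 ± 24.1 and below each adult array. The log2 difference was −0.41 ± 0.23 (95% interval −0.88 to 0.06), 1.33-fold lower (limma adjusted p = 0.409). After quantile normalization the values were 123, 112 and 117 against 92.6, 107 and 104, still separated, with a difference of −0.19 (95% interval −0.55 to 0.18; limma adjusted p = 0.715). The dimmer FST probe set was near background, with signals of 19.5, 13.4 and 10.1 in adult and 11.4, 12.8 and 22.4 in prepubertal oocytes. It overlapped between groups, and a limma fit without the filter gave it a log2 difference of 0.05 (95% interval −0.58 to 0.68; adjusted p = 0.974).

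INHBA and the brighter FST probe set, with log2 differences of −0.28 and −0.41, were also set against each other on each array. With 16 added to each signal the log2 ratio of INHBA to FST was −0.16, 0.04 and 0.07 on the adult arrays and −0.03, 0.13 and 0.21 on the prepubertal ones. The means of −0.02 ± 0.13 and 0.10 ± 0.13 (SD, n = 3) differed by 0.12 (exact permutation test, 2-sided, p = 0.40), and the groups overlapped. INHBA and FST are also made by granulosa cells, and in such pooled samples fewer cells of a type and less RNA per cell cannot be told apart. Of the 17 measured cumulus and granulosa markers 6 were bright enough to be tested, and none passed the limma test at an adjusted p of 0.05 or had an unadjusted p under 0.05. Values were lower in prepubertal oocytes for 3 of the 6 as deposited and for 2 after quantile normalization, with medians of −0.01 and 0.12. The 1 tested marker whose groups were apart was LHCGR, the receptor for luteinizing hormone, higher on all prepubertal arrays. In that direction 1.81% of all tested probe sets were separated as deposited and 7.54% after quantile normalization. LHCGR was dim, at 1.20, 19.2 and 20.9 in adult and 29.1, 22.7 and 21.8 in prepubertal oocytes. Its means were 13.8 and 24.5 (log2 difference 0.52, limma adjusted p = 0.466), the adult one lowered by replicate 1. LHCGR was picked out after its values were seen. The part of such cells in the INHBA and FST signals was not tested.

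**Figure D4:**
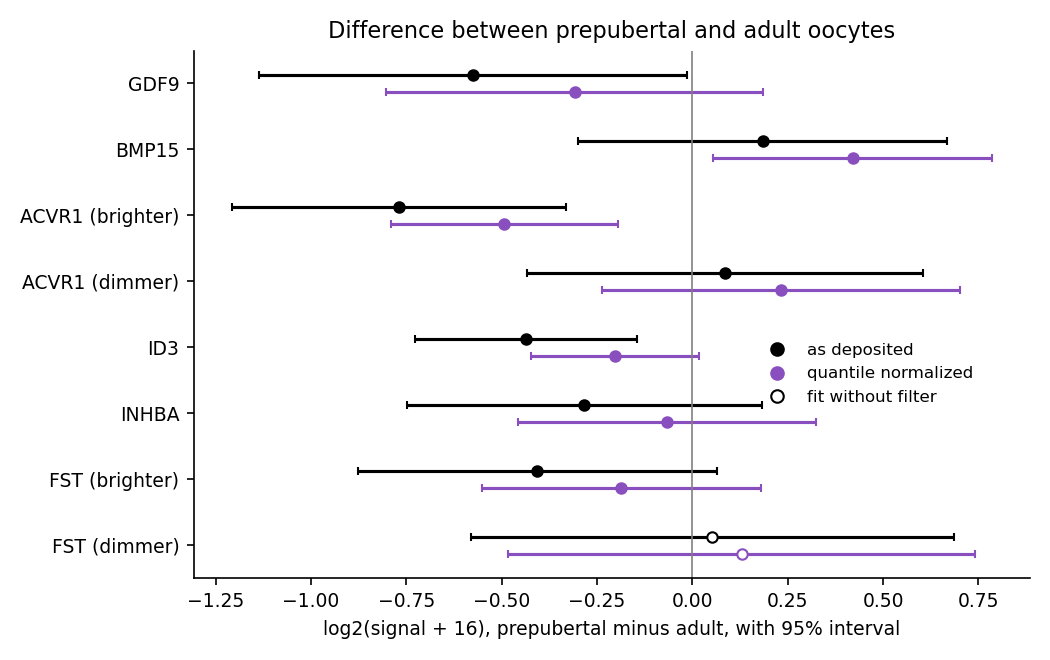
Difference in log2(signal + 16), prepubertal minus adult, of each member probe set with its 95% interval from limma, as deposited (black) and after quantile normalization (purple). Open points mark the probe set below the filter, taken from a fit without it. The intervals of the brighter ACVR1 probe set lie below 0 in both, those of ID3 and GDF9 as deposited only, and that of BMP15 lies above 0 after quantile normalization only.

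The rest of the pathway was read from a list of 60 further ligands, receptors, SMAD proteins, inhibitors, regulators and target genes, of which 30 were measured and 15 tested. None of the 15 passed the limma test at an adjusted p of 0.05 in either direction, as deposited or quantile normalized. As deposited 3 had an unadjusted limma p under 0.05, BMP4, BMPR1B and ENG, all with lower values, against 13.6% of all tested probe sets lower and 1.14% higher. After quantile normalization there were 2, ENG with lower and FKBP1A with higher values, against 5.81% lower and 5.05% higher. Values were lower in prepubertal oocytes for 11 of 15 as deposited and for 9 of 15 after quantile normalization, with medians of −0.20 and −0.06 against −0.20 and −0.01 over all tested probe sets. With the members included, 2 of 6 tested ligands, 3 of 7 receptors, 0 of 1 SMAD proteins, 0 of 2 extracellular inhibitors, 0 of 3 intracellular regulators and 1 of 2 target genes had an unadjusted p under 0.05 as deposited, all with lower values. After quantile normalization the counts were 1 of 6 ligands (BMP15, higher), 2 of 7 receptors (ACVR1 and ENG, lower), 1 of 3 intracellular regulators (FKBP1A, higher) and 0 for the other roles. All 7 tested receptor genes, each read from its probe set of highest mean, were at lower values on the deposited scale, 6 of 7 once quantile normalized. Their medians were −0.36 and −0.08, against −0.20 and −0.01 over all tested probe sets, so most probe sets were at lower values as deposited. The dimmer ACVR1 probe set, at 0.09 and 0.23, and another of BMPR1B, at −0.25 and 0.03, did not share the direction on both scales. The other roles, members included, had medians of −0.14 and 0.00 (ligands), −0.39 and −0.20 (extracellular inhibitors), −0.16 and −0.06 (intracellular regulators) and −0.05 and 0.11 (target genes).

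Among ligands other than the members, BMP4, which in the ovary is made mainly by theca cells, had signals of 84.8, 73.8 and 79.1 in adult and 43.3, 60.0 and 52.8 in prepubertal oocytes. The groups were apart as deposited and after quantile normalization, with log2 differences of −0.49 and −0.32 (limma adjusted p = 0.322 and 0.582). Of the 3 tested theca and stroma markers COL3A1 was also lower and apart on both scales, by −0.85 and −0.75 (limma adjusted p = 0.214 and 0.384). The other 2 had higher values on both scales. Such downward separation held for 17.1% and 8.77% of all tested probe sets. The part of theca and stroma cells in the BMP4 signal was not tested. INHA, the inhibin alpha subunit, which pairs with the INHBA product to form inhibin, overlapped at 61.6, 33.6 and 23.9 against 26.8, 40.6 and 57.5 (limma adjusted p = 0.929). The BMP type I receptor BMPR1B, through which BMP15 signals, had 675, 342 and 381 against 393, 233 and 205. The groups overlapped, with a log2 difference of −0.71 (95% interval −1.28 to −0.14; limma adjusted p = 0.251) and −0.43 after quantile normalization. Another tested BMPR1B probe set differed by −0.25 (log2) on the deposited scale and by 0.03 once quantile normalized. A further one was too dim to be tested, at 2.49, 1.15 and 0.68 in adult and 1.05, 14.3 and 23.6 in prepubertal oocytes. The co-receptor gene ENG, also an endothelial marker, was dim at 31.4, 29.8 and 32.3 against 24.7, 8.94 and 1.95, apart as deposited and overlapping after quantile normalization (log2 difference −0.84, limma adjusted p = 0.243).

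SMAD1, which carries BMP signals to the nucleus, had 608, 525 and 501 in adult and 544, 541 and 486 in prepubertal oocytes, differing by −0.05 (log2) on the deposited scale and by 0.23 once quantile normalized. FSTL3, a follistatin-like binder of activin, had 87.0, 63.1 and 85.5 against 62.2, 64.7 and 43.8 (−0.38, limma adjusted p = 0.461). FKBP1A, which binds type I receptors and holds them inactive, had signals of 803, 494 and 592 against 845, 830.2 and 779. It had overlapping groups as deposited, with a log2 difference of 0.40 (limma adjusted p = 0.40), and separated ones after quantile normalization, with 0.68 (95% interval 0.37 to 0.98; limma adjusted p = 0.0784). BAMBI, a decoy receptor without a kinase, was dim and overlapped (log2 difference −0.27, limma adjusted p = 0.680). ID1, a target gene of the same family as ID3, was likewise dim and had a log2 difference of 0.33 (95% interval −0.33 to 0.99; limma adjusted p = 0.656).

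The profiles most like GDF9 and BMP15 were looked for among 5767 tested probe sets with a single symbol, by the root mean square distance between quantile-normalized log2 values centred on their mean over the 6 arrays. Nearest to GDF9 were probe sets of OGFOD1, at a distance of 0.07, CTSV, at 0.09, and APP, at 0.09. OGFOD1 had signals of 138, 83.8 and 58.0 in adult and 81.9, 49.3 and 52.8 in prepubertal oocytes, so that replicate 1 was highest in both groups, as for GDF9. Nearest to BMP15 were TSR2, at 0.04, TXNL4A, at 0.07, and CHURC1, at 0.08. TSR2 had deposited signals of 198, 164 and 142 in adult and 255, 181 and 180.5 in prepubertal oocytes, highest on replicate 1 in both groups, as for BMP15 on that scale. After quantile normalization, the scale of the search, BMP15 was highest on replicate 2 in adult oocytes, at 178 against 159 on replicate 1. With 6 arrays and so many probe sets searched, near profiles are a description only.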

How the data were processed

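The deposited values are MAS5 signals, 1 per probe set and array, per the submitters' processing notes; neither the version nor the scaling target is stated. Poly(A) RNA, per the labels' protocols, was isolated on beads and amplified over 2 cycles into biotinylated cRNA, so a signal depends on the amount of a transcript and on its tail and 3′ end. All value columns were matched to samples. Symbols came from the platform annotation, updated by Entrez identifier through RefSeq's gene table for Sscrofa11.1. No coordinates or sequences are given.

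From the deposited signals, log2(signal + 16) was computed, which understates folds of dim probe sets. Leaving out 124 control probe sets of the manufacturer, of the other 23999 those with a mean at or above the median (12000) were tested with limma 3.58.1 in R 4.3.3 (lmFit and eBayes, trended on intensity), 2-sided, as prepubertal minus adult. Benjamini-Hochberg adjustment ran over all tested probe sets, with a threshold of 0.05. Gene p-values are from this fit unless another setting is named with them. Quantile normalization, each left-out array and the fit without the filter were run separately with the same model. Exact permutation tests, 2-sided (scipy 1.17.1), compared ratios within arrays and control ratios. The fit was tested on simulated data. The 3 arrays per group limit the precision.

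Named genes were all members; of the other pathway genes those past the threshold and the 2 tested ones with the smallest unadjusted p in each role; the 2 brightest of each marker list; and the 3 nearest profiles of GDF9 and BMP15. LHCGR, ZP3, POU5F1, NPM2, KIT and DDX4 were named after their values were seen. In lists each gene was read from its probe set of highest mean. The members and lists were chosen with earlier results of these data known. Alternatives covered the constant, filter, normalization, variance model, array weights, a replicate block and leaving out each array. Quantile normalization without a filter was added after seeing the data. The main fit did not pair arrays by replicate number. As deposited, deviations of same-numbered arrays correlated at 0.11, 0.06 and 0.03 over the tested probe sets. Those of differently numbered arrays correlated at −0.08 to 0.02. After quantile normalization the values were 0.08, 0.02 and 0.03 against −0.06 to 0.03. Whether arrays of one number share a batch was not tested.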

Additional observations from a re-analysis of the deposited data

How the results depend on the processing

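Of the 12000 tested probe sets 57 passed in limma as deposited (4 higher, 53 lower). The count was 15 with a constant of 1, 1 without the filter (of 23999) or without the intensity trend, 14 after quantile normalization (2 with it and no filter), 7 after median centring and 20 after trimmed mean scaling. It was 797 after scaling to the hybridization controls, 1259 with array weights, 132 at an adjusted p of 0.1, and 0 to 658 with 1 array left out, as deposited or quantile normalized. The replicate block gave 918 as deposited and 33 with quantile normalization.

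The count of members past the threshold, 0, became 2 (ACVR1 brighter and ID3) with hybridization control scaling, with array weights and with the replicate block, and stayed 0 with the replicate block and quantile normalization; with 1 array left out it was 0 to 1. That of the 15 other pathway genes, also 0, became 1 with hybridization control scaling, 3 with array weights and 1 with the replicate block, and was 0 to 2 with 1 array left out. The causes were not tested. The log2 differences of GDF9, BMP15, ACVR1 (brighter), ID3 and FST (brighter) kept their sign in all 25 alternatives. A change of filter, the fit without the intensity trend and the replicate block cannot alter a difference, so those settings add nothing to this.

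The INHBA to FST ratio took values of −0.34 with the dimmer FST probe set and −0.11 with the mean of both, but that probe set is near background and sets no direction. With hybridization control scaling the dimmer ACVR1 probe set reversed to −0.040 and INHA to −0.048. With 1 array left out, as deposited or quantile normalized, the log2 difference ranged from −0.025 to 0.35 for the dimmer ACVR1 probe set, −0.14 to 0.43 for INHA, −0.37 to 0.059 for INHBA, −0.014 to 0.64 for ID1 and −0.11 to 0.31 for SMAD1. SMAD1 was at 0.23 after quantile normalization (also with the replicate block or no filter), 0.031 after median centring and 0.21 after trimmed mean scaling. For the ratios a replicate block left the difference as it was, −0.81 for GDF9 to BMP15, with an exact sign-flip p of 0.25, the smallest that 3 pairs can give.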
